A study of Mus musculus with 22 samples.

Results

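The control mice of this series allow a comparison of old with young esophageal epithelium in the absence of disease. They were chosen by their labels. Cells of 3 old mice (18 to 20 months, mice 3, 4 and 5) were set against those of 3 young mice (3 to 4 months, mice 1, 2 and 6), all C57BL6 and untreated. These mice gave 12 of the 22 libraries of the series and 1500 of its 4500 cells, with 704 cells from old mice and 796 from young mice. The other mice carried eosinophilic esophagitis (EoE) induced with MC903 and ovalbumin, or esophageal squamous cell carcinoma induced with 4NQO. Among the EoE mice, 2 were young (6 to 8 weeks) and 2 were old (19 to 20 months), and they serve below as separate mice in which the age difference could be read again. The epithelium-enriched layer of each esophagus was peeled from muscle, treated with Dispase and Trypsin and profiled by inDrop. This method tags the RNA of single cells in droplets with a barcode for the cell and a unique molecular identifier (UMI) for the molecule.

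The esophagus of the mouse is lined by a stratified squamous epithelium. Cells divide in the basal layer, which expresses Krt5, Krt14 and Krt15, then leave it, switch to Krt4 and Krt13 and accumulate products of late differentiation such as Krtdap before they are shed at the surface. Aging of such an epithelium is commonly followed through cell cycle arrest genes such as Cdkn1a and Cdkn2a, through secreted and matrix genes and through the signals that basal cells receive from their surroundings.

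Every mouse gave 2 libraries, whose UMIs were added up to make 1 replicate. The totals were 112412, 427752 and 281826 UMIs in old mice 3, 4 and 5, and 404810, 206425 and 317575 UMIs in young mice 1, 2 and 6. Mouse 3 gave 71 cells, the fewest of the 6, and stood apart from the others on the first axis of a multidimensional scaling plot (1.30, against -0.47 to 0.28). Both libraries of a mouse shared cell barcodes, 122 in all, which left 1378 distinct barcodes, whereas libraries of different control mice shared 2 over 60 pairs of libraries. Profiles with the same barcode correlated at a median r of 0.697 to 0.824 by mouse and those with other barcodes at 0.337 to 0.383. Part of the cells were therefore counted in both libraries. Counting each barcode once was tried for the gene test over all cells and for the shares of cell classes, and is given where it differs. It was not tried for gene tests within classes of cells or for the shares of lists. Markers of the labelled tissue were present in every mouse, where basal, suprabasal and superficial markers took 1.40 to 2.09%, 3.25 to 5.84% and 0.583 to 1.89% of the UMIs of a mouse. Immune, endothelial, muscle and red cell markers each took at most 0.00727% and fibroblast markers 0.0472 to 0.113%.

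Few genes passed the threshold between old and young control epithelium. Of 5167 genes tested, 5 passed an adjusted p of 0.05 (0.0968%) by edgeR's quasi-likelihood test, of which Hoxc8, Rgs2, Ccn1 and Ccn2 were higher in old mice (0.0774% of genes) and H19 was lower (0.0194%). DESeq2 called the same 5 genes. At an unadjusted p under 0.05, edgeR had 150 genes higher (2.9%) and 107 lower (2.07%) in old mice, and the median log2 fold change of all tested genes was -0.00. The level of each of the 5 genes did not overlap between the ages, as was true of 5.71% of all tested genes with every old mouse above every young mouse and of 4.82% with every old mouse below. The calls depended on single mice. All 5 remained without mouse 3 or mouse 2, whereas Hoxc8 and Rgs2 were lost without mouse 4 (adjusted p = 0.179 and 0.269), all but Hoxc8 without mouse 1 (0.0151), all but H19 without mouse 6 (0.0384) and all 5 without mouse 5 (0.157 to 0.482), by the same edgeR test. The direction of each gene was kept in every one of these fits.

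**Figure D1:**
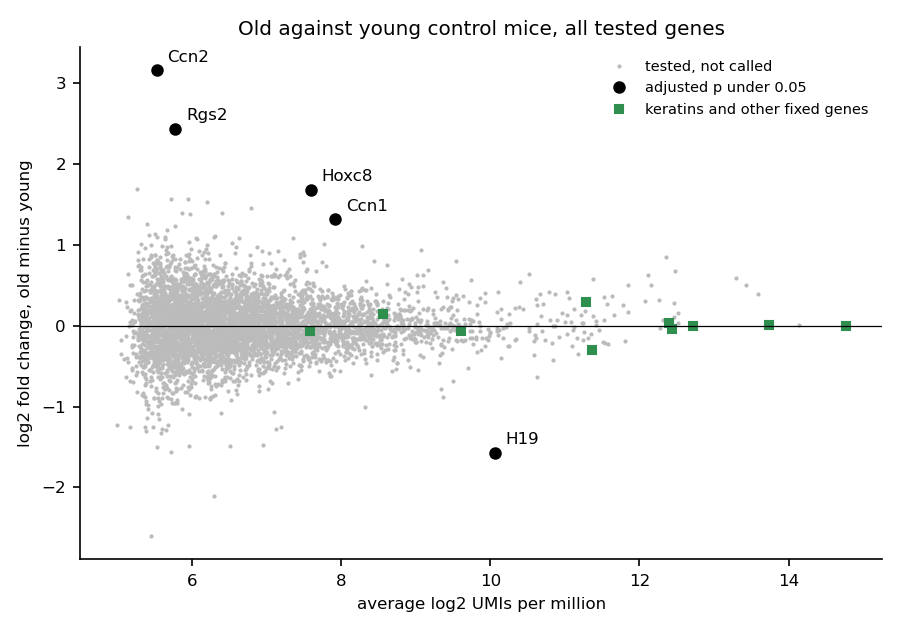
Log2 fold change of each of 5167 tested genes (vertical axis, old minus young control mice) against its average log2 CPM (horizontal axis). Black points are the 5 genes with an adjusted p under 0.05, green squares are Krt5, Krt14, Krt15, Krt4, Krt13, Krtdap, Atp1b3, Cdkn1a, Mki67 and Top2a, which lie between -0.31 and 0.29, and grey points are all other genes.

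H19, an imprinted long noncoding RNA expressed from the maternal chromosome and abundant in fetal tissues, was the gene that fell. Its level was 345, 650 and 552 CPM (UMIs of the gene per 1000000 UMIs of all tested genes in the mouse, TMM-scaled) in old mice 3, 4 and 5 and 1913, 1456 and 1331 in young mice 1, 2 and 6. Every old mouse lay below every young mouse. The log2 fold change was -1.57 (SE 0.24, n = 3 mice a group, adjusted p = 0.0179, edgeR quasi-likelihood test), which corresponds to a 2.97-fold lower level. Of 22 imprinted genes in the files, 5 had counts sufficient for a test, and of these only H19 passed the threshold, in edgeR and DESeq2. The median log2 fold change of these 5 was 0.00, beside -0.00 over all tested genes. Igf2r, the receptor that clears IGF2, had 38.6 to 86.3 CPM in old and 30.1 to 45.0 in young mice, and the values overlapped.

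H19 lies on chromosome 7 at chr7:142575529-142578143 on the minus strand (GRCm38, GENCODE M21). Its exon contains the microRNA miR-675, and 2 annotated small RNA genes lie on the opposite strand. The mature miR-675 arms, from RefSeq (GRCm38.p6), are shown because they are made from the transcript that fell. Their seeds (bases 2 to 8) are in capitals, and the microRNAs themselves were not measured.
mmu-miR-675-5p: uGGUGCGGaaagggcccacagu
mmu-miR-675-3p: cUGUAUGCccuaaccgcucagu

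Hoxc8, a homeobox transcription factor of the HoxC cluster that helps to set position along the body axis, rose with age. Its level was 211, 304 and 332 CPM in old mice 3, 4 and 5 and 122, 50.2 and 85.5 in young mice 1, 2 and 6. All old mice exceeded all young mice, with a log2 fold change of 1.69 (SE 0.27, n = 3 mice a group, adjusted p = 0.0179, edgeR). The other HoxC genes differed less. Hoxc6 had 76.7, 177 and 135 CPM in old and 103, 75.3 and 89.0 in young mice (log2 fold change 0.63, adjusted p = 0.962), and Hoxc4 had 201, 100 and 127 against 132, 181 and 103 (-0.05, adjusted p = 1.00). Both overlapped between the ages. Hoxc9 and Hoxc13 were listed at 0 in all 6 mice. Actg1, an actin that every cell uses, was also listed at 0 in all of them, so such an entry gives no upper limit on a level. Of 23 Hox genes in the files, 6 were tested, 1 was called (0.0968% of all genes) and their median log2 fold change was 0.60, beside -0.00 over all genes. This list too was written with the call known. Hoxc8 lies at chr15:102990607-102994111 on the plus strand and is overlapped on the same strand by the annotated gene Hoxc5. Whether their exons overlap was not tested, so reads of both genes may not be fully told apart. Hoxc5 itself had 88.8 to 115 CPM in old and 52.9 to 92.4 in young mice.

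Rgs2, a GTPase-activating protein that shortens signaling by G protein-coupled receptors, was at 95.9, 81.9 and 81.1 CPM in old mice 3, 4 and 5 and at 10.6, 30.1 and 10.3 in young mice 1, 2 and 6. The old mice were close to one another and all above the young mice. The log2 fold change was 2.44 (SE 0.42, n = 3 mice a group, adjusted p = 0.0254, edgeR). These levels rest on 62 UMIs in old and 13 in young mice, and with each barcode counted once the gene no longer passed. Rgs12, the other tested member of 17 RGS genes in the files, had a log2 fold change of 0.03 (adjusted p = 1.00).

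**Figure D2:**
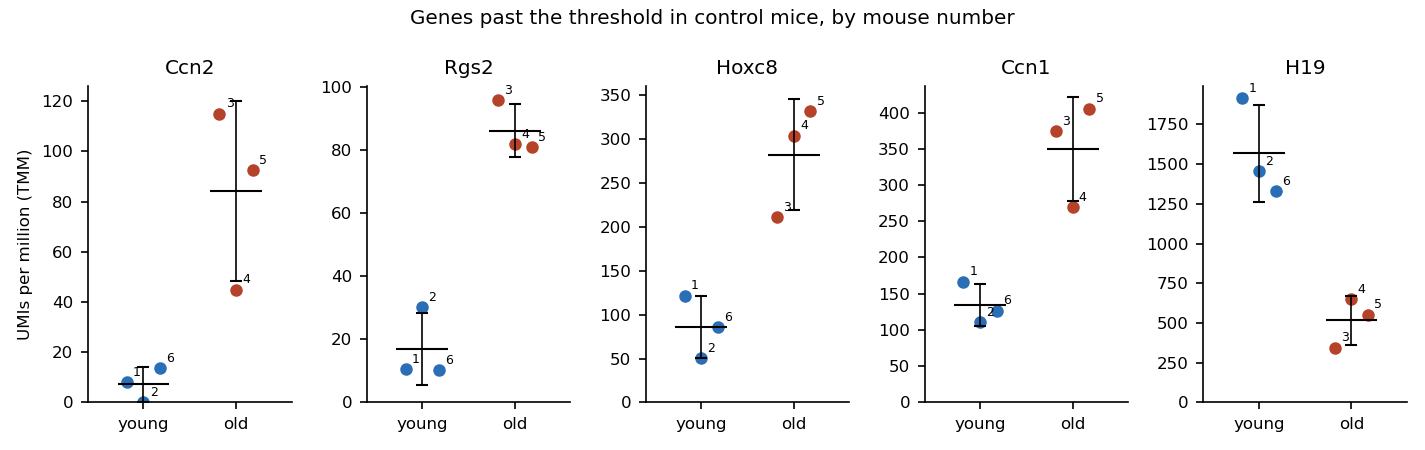
TMM-scaled CPM (vertical axes, from 0) of the 5 genes that passed the threshold, in each young (blue) and old (red) control mouse. Numbers give the mouse, lines the mean and bars the SD over 3 mice; in every panel the old and young mice do not overlap, and mouse 4 has the lowest Ccn1 and Ccn2 of the old mice.

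Ccn1 (Cyr61) and Ccn2 (Ctgf), secreted matricellular proteins that bind integrins and are known targets of YAP and of serum response factor, both rose. Ccn1 was at 374, 269 and 405 CPM in old mice 3, 4 and 5 and at 167, 110 and 127 in young mice 1, 2 and 6. Every old mouse exceeded every young mouse by this measure, with a log2 fold change of 1.32 (SE 0.24, n = 3 mice a group, adjusted p = 0.0304, edgeR). Ccn2 was at 115, 44.9 and 92.7 CPM in old mice and at 7.94, 0 and 13.7 in young mice. Mouse 2 had 0 UMIs of Ccn2 among its 206425, which allows up to 14.5 CPM of all its UMIs. The log2 fold change was 3.16 (SE 0.58, adjusted p = 0.0308, edgeR), from 53 UMIs in old and 7 in young mice, and the gene no longer passed when each barcode was counted once. Of a list of 42 YAP and serum response genes written after these 2 genes had been seen, 25 were tested, 2 rose and 0 fell, and the median log2 fold change was 0.13, beside 0.0774% and 0.0194% of all genes and a median of -0.00. Since the list was written with these 2 calls known, nothing is read from its count. Amotl2 and Lats2, which feed back on YAP, had log2 fold changes of 0.36 and 0.64 (adjusted p = 0.999 for both).

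Fibroblasts also express Ccn2, so the fibroblast markers are given beside it. They took 0.113, 0.0524 and 0.0472% of the UMIs of old mice 3, 4 and 5 and 0.0627, 0.0896 and 0.0488% of those of young mice 1, 2 and 6. Of the 11 markers, 4 were tested and 0 were called by edgeR or DESeq2. Dcn, at 556, 232 and 166 CPM in old and 143, 206 and 89.0 in young mice, had an unadjusted p under 0.05 (log2 fold change 1.01, adjusted p = 0.880), and Fbln1 had a log2 fold change of 0.45, Sparc -0.58 and Gsn -0.05. Col1a1, Col1a2 and Col3a1, which were too sparse for the test, had 5, 3 and 8 UMIs in old and 23, 31 and 37 in young mice. When 6 cells rich in markers of other cell types (1 old, 5 young) were left out, the same 5 genes passed.

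The promoters of Ccn1 and Rgs2 are shown because both genes rose and were the only called genes found in the promoter table (RefSeq, GRCm38.p6). Each runs over the 250 bases before the start site, 5′ to 3′ on the minus strand, Ccn1 at chr3:145649986-145650235 and Rgs2 at chr1:144004150-144004399. Capitals mark CATTCC, the core of the motif bound by TEAD factors, and CGTCA, the short site bound by CREB and ATF factors, each searched on both strands; the matches do not overlap.
Ccn1: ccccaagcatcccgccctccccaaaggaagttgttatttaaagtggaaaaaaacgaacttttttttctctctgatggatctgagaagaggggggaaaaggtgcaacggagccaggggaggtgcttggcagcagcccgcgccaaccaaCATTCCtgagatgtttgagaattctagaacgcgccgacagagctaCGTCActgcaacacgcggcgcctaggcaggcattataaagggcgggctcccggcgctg
Rgs2: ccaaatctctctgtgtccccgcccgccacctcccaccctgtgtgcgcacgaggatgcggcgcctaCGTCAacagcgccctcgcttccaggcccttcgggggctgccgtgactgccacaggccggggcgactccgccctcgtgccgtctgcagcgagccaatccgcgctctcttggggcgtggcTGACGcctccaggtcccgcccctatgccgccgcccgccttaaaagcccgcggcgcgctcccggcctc
Ccn1 held 1 CATTCC and 1 CGTCA, and Rgs2 held 2 CGTCA. Of all 32851 promoters of this length, 12.6% held CATTCC and 17.8% held CGTCA.

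Immediate early genes, which cells transcribe within minutes of a stimulus, tissue dissociation included, were at higher summed levels in the old mice. They took 2.56, 2.58 and 2.85% of the UMIs of old mice 3, 4 and 5 and 2.30, 2.02 and 1.99% of those of young mice 1, 2 and 6. The mean was 2.66% ± 0.164 in old and 2.10% ± 0.170 in young mice (SD, n = 3), without overlap, and the two-sided exact permutation test gave p = 0.1, the smallest p that 3 against 3 mice allow, and 0.99 after Benjamini-Hochberg adjustment over 33 lists. TGF-beta, BMP and Wnt genes, which include Fst, were the other of these 33 lists without overlap, at 0.276, 0.267 and 0.278% in old and 0.298, 0.336 and 0.280% in young mice, and lower in the old mice (exact permutation p = 0.1). For immediate early genes, the difference (old minus young) was 0.517 percentage points in the first libraries alone and 0.582 in the second. It was 0.464 to 0.657 with each mouse left out. Of 24 immediate early genes tested, 0 fell and 2 rose (8.33% of the list, against 0.0774% of all genes called higher). These were Ccn1 and Ccn2, already among the called genes above. The list was chosen with earlier results of these data known, so nothing is read from this count. A log2 fold change above 0 was found in 22 of the 24, beside 2565 of all 5167 tested genes. The list median was 0.41, against -0.00 over all genes. Every old mouse lay above every young mouse in 11 of the 24 and below in 0, beside 5.71% and 4.82% of all tested genes.

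Among the members that did not pass, Atf3, a stress-induced transcription factor, had 1151, 832 and 880 CPM in old and 601, 532 and 496 in young mice (log2 fold change 0.80, adjusted p = 0.465). Myc, the growth-promoting transcription factor, had 432, 420 and 456 in old and 323, 216 and 202 in young mice (0.80, adjusted p = 0.481), and Jun, a subunit of AP-1, had 3482, 2733 and 3313 against 2347, 2069 and 1971 (0.57, adjusted p = 0.880). These 3 genes did not overlap between the ages. Fos, the partner of Jun, overlapped, with 5064, 7255 and 6163 in old and 5554, 5142 and 4581 in young mice (0.28, adjusted p = 0.999), as did Dusp1, a phosphatase of the MAP kinases (0.07, adjusted p = 0.999).

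**Figure D3:**
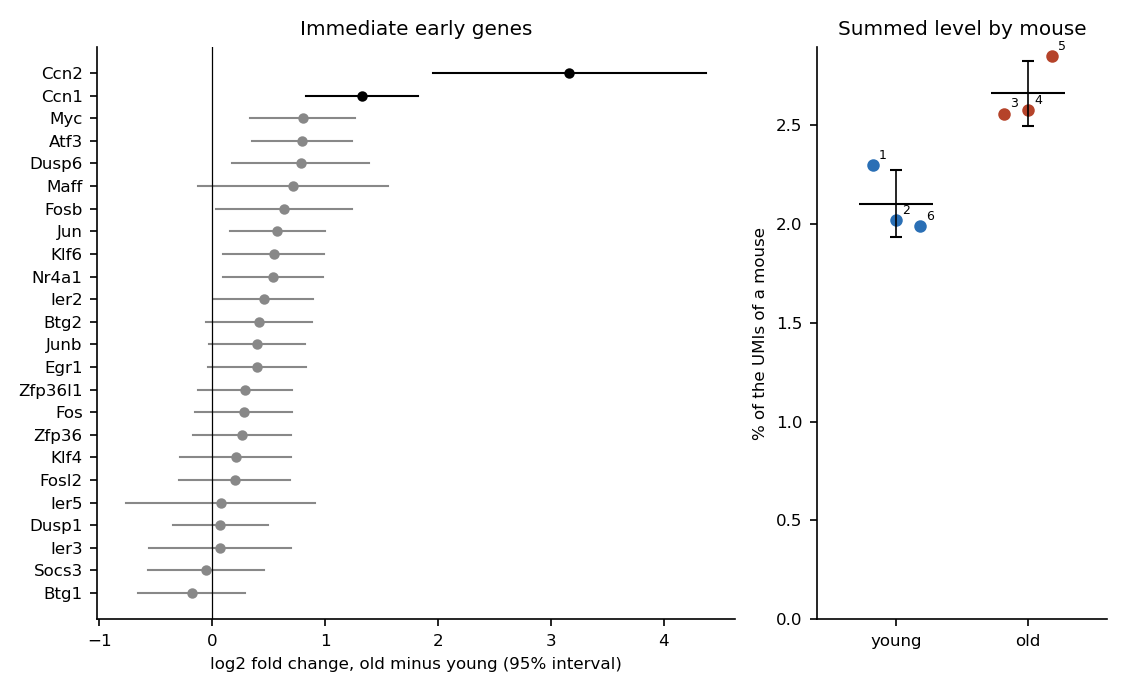
Left, log2 fold change (old minus young control mice, horizontal axis) with its 95% interval for the 24 tested immediate early genes, black where the adjusted p was under 0.05 (Ccn1 and Ccn2); 22 of the 24 points lie above 0. Right, the summed share of the list in the UMIs of each mouse (percent, from 0), with the mean and SD of 3 young and 3 old mice, which do not overlap.

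Genes of the mitochondrial genome had the highest list median after the Hox and RGS genes. All 7 tested of 13 had a log2 fold change above 0 (median 0.60), 6 had an unadjusted p under 0.05, beside 2.9% of all genes higher and 2.07% lower, and 0 passed the adjustment in edgeR or DESeq2. Their summed share was 5.33, 7.59 and 4.38% in old mice 3, 4 and 5 and 3.91, 4.74 and 3.56% in young mice 1, 2 and 6. The ages overlapped (5.77% ± 1.65 against 4.07% ± 0.602, exact permutation p = 0.2), and mouse 4 was the highest. The share of mitochondrial transcripts is also a common measure of cell quality, and its part in the other differences was not tested.

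In the main fit, genes of the epithelial layers did not pass the test in either direction. Krt5 had 4516 to 7213 CPM in old and 4998 to 6367 in young mice (log2 fold change -0.04, 95% interval -0.50 to 0.43). Krt15 and Krt14 gave 0.03 (-0.42 to 0.48) and -0.31 (-0.78 to 0.17), and the suprabasal keratins Krt4 and Krt13 gave -0.00 (-0.65 to 0.64) and 0.01 (-0.47 to 0.50). Krtdap, a marker of late differentiation, ranged from 3712 to 8800 in old and from 3967 to 8512 in young mice (-0.00, interval -0.62 to 0.62), with mouse 3 and mouse 2 lowest in their groups. Atp1b3, a subunit of the sodium pump, gave 0.29 (-0.14 to 0.72). Of 16 basal, 12 suprabasal and 13 superficial markers tested, 0 were called by either tool, 0, 1 and 2 had an unadjusted p under 0.05 in edgeR (all lower in old mice), and the list medians were -0.03, -0.01 and -0.29. Some differentiation genes did pass in other settings of the all-cell comparison. Without the filter on low counts, edgeR called the superficial markers Sprr1b and Lce3a and the keratins Krt1, Krt10 and Krt6a. Sprr1b was also called without young mouse 2.

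Genes of the cell cycle and of arrest also had 0 called in the main fit. Mki67 and Top2a, both markers of dividing cells, had log2 fold changes of -0.07 (95% interval -0.56 to 0.43) and 0.14 (-0.33 to 0.61), and Cdkn1a, the p21 inhibitor of cyclin-dependent kinases, -0.06 (-0.53 to 0.41). Cdkn2a, the p16 and p19 locus often used as a marker of senescence, was too sparse for the test, with 0, 2 and 4 UMIs in old mice 3, 4 and 5 and 0 in each young mouse, which allows up to 3.23 CPM of all UMIs over the young mice. Of the senescence and secretory list 11 of 34 genes were tested, 0 were called by edgeR or DESeq2 and 2 had an unadjusted p under 0.05 in edgeR, Igfbp3 (log2 fold change 0.77) and Igfbp5 (0.91), both secreted IGF-binding proteins. The summed share of this list was 0.221% ± 0.0219 in old and 0.224% ± 0.0156 in young mice (exact permutation p = 1). The S phase and G2/M lists had 0 of 17 and 0 of 39 tested genes called, with medians of -0.17 and -0.06, and 13 tested p53 targets had 0 called and a median of -0.14. At an unadjusted p under 0.05 these 3 lists had 0, 2 and 0 genes in edgeR.

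Of the remaining lists with at least 10 tested genes, sterol synthesis genes had the lowest median (-0.33, with 1 of 19 tested members above 0), followed by stress keratins and alarmins (-0.22 over 12), desmosome and junction genes (-0.18, with 2 of 22 above 0) and proteasome subunits (-0.16 over 30). Hmgcs1 and Msmo1, enzymes of cholesterol synthesis, had log2 fold changes of -0.38 and -0.42 (adjusted p = 0.999 for both). Glucocorticoid targets (0.21, with 9 of 10 above 0), interferon and MHC class I genes (0.20 over 11) and ribosomal proteins (0.17 over 55) had medians above 0. Over all tested genes, 2565 of 5167 were above 0. The summed shares of the sterol, desmosome and glucocorticoid lists overlapped between the ages (exact permutation p = 0.3 for each). Lists of heat shock proteins, NRF2 targets, barrier lipids, clock genes, adhesion, Notch, TGF-beta with BMP and Wnt, glycolysis, apoptosis and the nuclear respiratory chain had medians from -0.08 to 0.13. MHC class II genes and muscle markers had 1 tested gene each (-0.45 and -0.34). In all of these lists 0 genes were called by edgeR or DESeq2, and each had 0 to 3 genes at an unadjusted p under 0.05 in edgeR.

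The genes nearest to the threshold among those lower in old mice are given as values, since H19 was the only one to pass in that direction. Meis2, a homeobox partner of Hox proteins, had 9.59, 7.92 and 11.6 CPM in old and 45.0, 110 and 37.6 in young mice (log2 fold change -2.60, adjusted p = 0.241, from 7 and 50 UMIs). Fst, follistatin, which binds activin and BMP ligands, had 67.1, 18.5 and 15.4 in old and 111, 176 and 54.7 in young mice (-2.11, adjusted p = 0.281), and old mouse 3 overlapped young mouse 6. Maf, a bZIP transcription factor, had 76.7, 100 and 42.5 in old and 214, 131 and 192 in young mice (-1.28, adjusted p = 0.363). Meis2 and Maf did not overlap between the ages. Of the other genes without overlap, Upk3bl, Snrpc, Gas2l1, Srsf9 and Mboat1 were the next, with log2 fold changes of -1.49 to -0.81 and adjusted p of 0.462 to 0.853 (edgeR).

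To ask whether these differences lay in one layer, control cells were clustered without the 5 called genes. Each cluster was placed by its mean Krtdap and Krt5 on a strip of the study's width, 0.3 to either side on a log10 scale. The study placed clusters of all its conditions after its own normalization, so these classes may differ from its basal, suprabasal and superficial ones. Clusters below the strip, here called Krt5-dominant, held 945 cells, and those above it, here called Krtdap-dominant, held 549. Another 6 cells, rich in Dcn and Sparc, fell between, so the suprabasal cells of the study have no class of their own here. Of the Krt5-dominant cells, 216 formed a cluster near the edge of the strip, at -0.319, and 52.8% of that cluster held Krtdap. The other Krt5-dominant clusters lay at -0.840 and -0.852. Krt5-dominant cells made up 77.5, 63.6 and 59.4% of the cells of old mice 3, 4 and 5 and 54.6, 77.0 and 61.8% of those of young mice 1, 2 and 6. The means were 66.8% ± 9.47 and 64.5% ± 11.4 (SD, n = 3), a difference of 2.31 percentage points that was smaller than the spread between mice (exact permutation p = 0.7). Its sign turned without mouse 3 (-3.02), without mouse 1 (-2.61) and with cells classed singly (-3.33), and it was 8.57 without mouse 2, 6.03 without mouse 5 and 3.93 without mouse 4.

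Within Krt5-dominant cells the same 5 genes passed and 3 more were added. Of 3359 genes tested, 8 were called by edgeR (0.238%), of which Hoxc8, Ccn2, Rgs2, Ccn1 and Dcn rose (0.149%) and H19, Dsc2 and Fst fell (0.0893%). DESeq2 called 5 (0.149%), the same 5 as in all cells. Hoxc8, H19 and Ccn2 passed in all 9 alternatives, including each mouse left out, Rgs2 in 8 and Ccn1 in 7. Counting each barcode once was not among these alternatives. Hoxc8 was at 323, 378 and 307 CPM of the tested genes in these cells in old mice 3, 4 and 5 and at 84.9, 39.8 and 71.3 in young mice 1, 2 and 6, a log2 fold change of 2.32 (SE 0.30, n = 3 mice a group, adjusted p = 5.32e-05). H19 was at 554, 1135 and 1060 against 3536, 2157 and 2504 (-1.53, SE 0.23, adjusted p = 0.000251). Ccn2 was at 185, 88.1 and 177 against 0, 0 and 28.5 (3.81, SE 0.65, adjusted p = 0.00253), with 0 of its UMIs in young mice 1 and 2. Rgs2 and Ccn1 had log2 fold changes of 2.29 (adjusted p = 0.00469) and 1.27 (adjusted p = 0.00775, edgeR).

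Of 22 immediate early genes tested in Krt5-dominant cells, 13 had every old mouse above every young mouse and 0 the reverse, beside 6.19% and 6.16% of all genes. At an unadjusted p under 0.05, 12 of the 22 were higher and 0 lower in old mice, beside 3.87% and 3.3% of all genes, and the list median was 0.47. Of these, Ccn1 and Ccn2 passed the adjustment.

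The 3 genes added in Krt5-dominant cells were each lost in DESeq2 and in 2 or 3 further alternatives. Dsc2, a desmosomal cadherin, had 77.0, 88.1 and 84.5 CPM in old and 243, 279 and 214 in young mice (log2 fold change -1.52, SE 0.30, adjusted p = 0.0120, edgeR). Fst had 108, 31.1 and 30.7 against 215, 279 and 107 (-2.13, SE 0.43, adjusted p = 0.0121), and old mouse 3 overlapped young mouse 6. Dcn, decorin, a proteoglycan also used here as a fibroblast marker, had 600.5, 378 and 284 against 96.2, 215 and 171 (1.35, SE 0.29, adjusted p = 0.0289). Dcn was the most abundant fibroblast marker in old mouse 3, with 58 UMIs over all cells. Beside it were 33 UMIs of Gsn, 21 of Sparc and 5, 1 and 3 of Col1a1, Col1a2 and Col3a1. Dsc2, Fst and Dcn were among the genes available to the clustering that formed this class.

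Krtdap-dominant cells gave 0 called genes of 3047 (0%) in edgeR and in DESeq2, with 125 and 23 genes at an unadjusted p under 0.05. Mouse 3 had 15 such cells and was left out by a minimum of 20, so this fit rests on 2 old and 3 young mice. Without mouse 4 or mouse 5 the fit has a single old mouse, taken to vary as the young mice did, and calls 8 and 5 genes. H19 was at 172 and 44.6 CPM in old mice 4 and 5 and at 557, 369 and 288 in young mice 1, 2 and 6 (log2 fold change -1.84, SE 0.41, adjusted p = 0.368, edgeR). Hoxc8 was at 267 and 411 against 180, 97.2 and 114 (1.24, SE 0.33, adjusted p = 0.998). Both had the direction seen in Krt5-dominant cells. Ccn2 had 1 UMI in old and 1 in young Krtdap-dominant cells and Rgs2 5 and 0, the latter allowing up to 7.33 CPM.

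**Figure D4:**
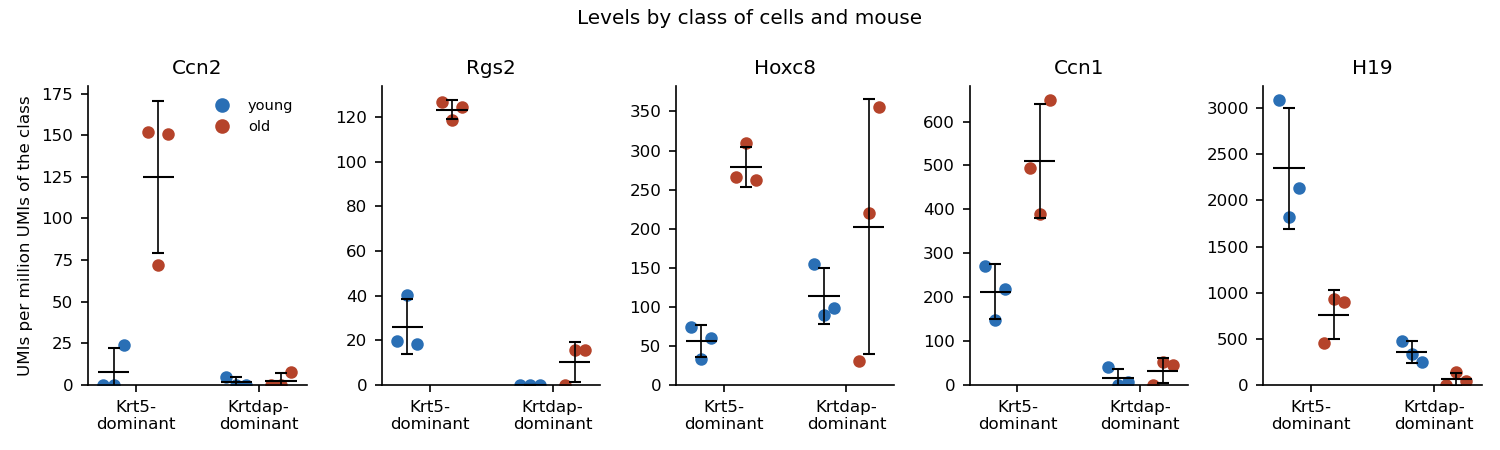
Level of the 5 called genes (CPM of all UMIs of the class, without TMM scaling, vertical axes from 0) in Krt5-dominant and Krtdap-dominant cells of each young (blue) and old (red) control mouse, with the mean and SD of 3 mice. The ages are apart in Krt5-dominant cells in all 5 panels; old mouse 3, with 15 Krtdap-dominant cells, is the lowest Hoxc8 point of that class.

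The EoE mice offered the same age comparison in mice that the controls did not include. They were shallower, with 61571 to 85774 UMIs a mouse, their young mice were younger than the young controls, and 11 to 57 of their 246 to 487 cells a mouse met the limits of 250 to 3500 genes and 100 to 9500 UMIs that all control cells met. Hoxc8 was at 219 and 352 CPM in old EoE mice 11 and 12 and at 27.3 and 119 in young EoE mice 9 and 10. These levels rest on 12 and 22 UMIs in the old and on only 2 and 8 in the young EoE mice. The log2 fold change was 2.00 (SE 0.57, 95% interval 0.84 to 3.17, adjusted p = 0.173, edgeR). H19 was at 620 and 545 against 1174 and 894, a log2 fold change of -0.83 (SE 0.33, interval -1.51 to -0.16, adjusted p = 0.373, edgeR). Both genes had the direction seen in controls, without overlap, and did not pass the adjustment over 4394 genes.

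The other 3 genes were not higher in every old EoE mouse. Ccn1 was at 54.7 and 16.0 CPM in old EoE mice and at 81.9 and 59.6 in young EoE mice, from 14 UMIs in all (log2 fold change -1.05, interval -2.69 to 0.60). The EoE age effect minus that of controls was -2.36 on the log2 scale (SE 0.82, adjusted p = 0.555, edgeR). Rgs2 was at 54.7 and 64.1 against 27.3 and 59.6 (0.47, interval -1.22 to 2.17), and old mouse 11 lay below young mouse 10. Its UMIs were 3 and 4 in old EoE mice 11 and 12 and 2 and 4 in young EoE mice 9 and 10. Ccn2 had 1 UMI in mouse 9 and 0 in mice 10, 11 and 12, where 0 allows up to 38.4, 48.7 and 41.7 CPM of all UMIs. The limits of old EoE mice 11 and 12 lay below the Ccn2 level of old control mice 3 and 5 (107 and 85.2 CPM of all UMIs) and above that of old control mouse 4 (39.7), and 1 UMI against 0 gave no direction between the ages. In the fit with control and EoE mice together, the control comparison again called the same 5 genes.

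**Figure D5:**
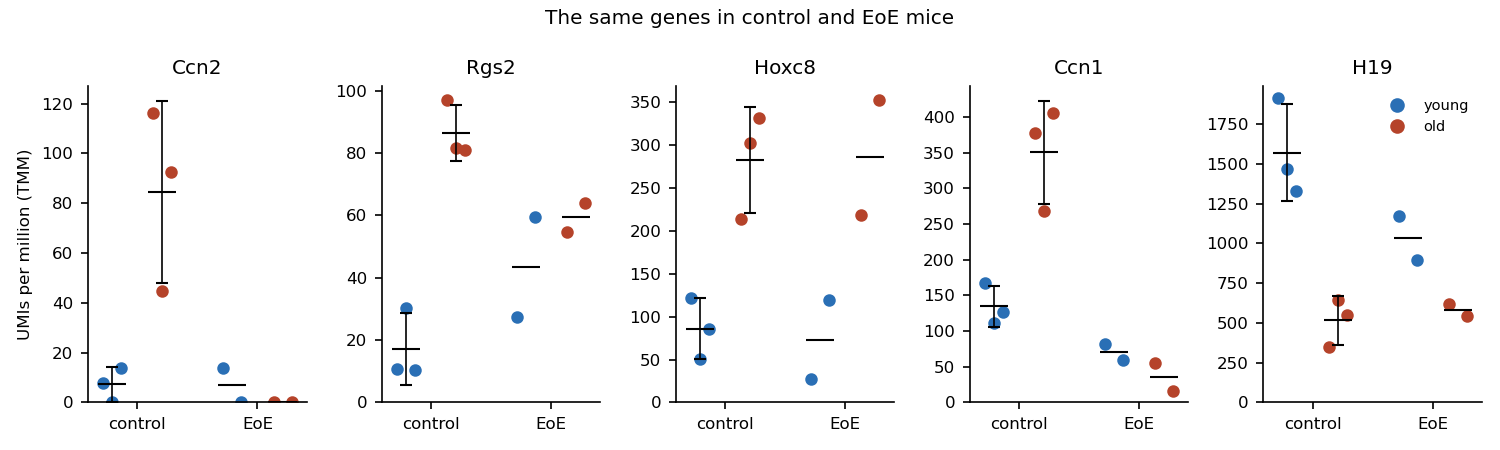
TMM-scaled CPM (vertical axes, from 0) of the 5 genes in young (blue) and old (red) control and EoE mice. Lines are means, with SD bars where a group has 3 mice; Hoxc8 and H19 separate the ages in both conditions, Ccn1 does so in opposite directions, and Ccn2 has 1 UMI over the 4 EoE mice.

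Across all genes, 14 of 4394 (0.319%) were called between old and young EoE mice by edgeR, 3 higher (0.0683%) and 11 lower (0.25%) in old mice, and 10 by DESeq2 (0.228%). None of the 5 genes called in controls was among them. The age difference of 1 gene (0.0228%) differed between EoE and control mice, Lars2, the mitochondrial leucyl-tRNA synthetase, and DESeq2 called 1 gene as well. Krt13 was at 6141 and 5543 CPM in old EoE mice and at 20887 and 16186 in young EoE mice, a log2 fold change of -1.67 (SE 0.29, adjusted p = 0.00782, edgeR), beside 0.01 in controls. The difference between these 2 age effects did not pass (adjusted p = 0.112). With EoE cells within the above limits, or without mouse 9, 11 or 12, 1 gene was called in place of 14.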

How the data were processed

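Esophageal cells were profiled by inDrop. Per the paper and the labels, the authors extracted barcodes with UMI-tools 1.0.0, aligned reads with STAR 2.7.3 to GRCm38 (GENCODE M23), assigned them with featureCounts, counted UMIs, filtered cells and genes and drew 1500 cells per condition. The deposited tables hold raw UMI counts of 17541 genes. The members, lists, named genes and tests used here were chosen with earlier results of these data known, and the lists of imprinted, Hox, RGS and YAP and serum response genes were written after the called genes had been seen.

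Counts were summed per mouse over both libraries and all deposited cells, so the cells of a mouse are not replicates. The main test was the quasi-likelihood test of edgeR 4.0.16 under R 4.3.3, after TMM scaling and the filterByExpr filter, and p-values were adjusted by Benjamini-Hochberg over all tested genes (threshold 0.05). DESeq2 1.42.0 and limma 3.58.1 served as alternatives. The same test was used within classes of cells (at least 20 cells a mouse) and, with 4 groups, for control and EoE mice. For shares, an exact permutation test (two-sided) over mice was used. Clusters came from Leiden at resolution 1 (scanpy 1.11.5) on 15 neighbours in 50 principal components of 2000 variable genes, from log values at 10000 UMIs a cell. Doublets were not called, since the authors removed them by gene and UMI limits. Control library totals ranged from 44142 to 216907 UMIs. Limits set by a count of 0 are 3 UMIs of the total and cover counting error only. The labels do not say whether old and young mice were housed, handled or run apart. Any such difference could not be told apart from age, and p-values measure the spread between these mice.

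The genes named were Krt5, Krt14, Krt15, Krt4, Krt13, Krtdap, Atp1b3, Cdkn1a, Cdkn2a, Mki67 and Top2a, the called genes whose mean log2 CPM reached 5 and that had no overlap between ages (up to 12 a direction, with genes of lowest p up to 8 where under 4 were called), and the leading members of lists. Igf2r, Igfbp3, Igfbp5, Amotl2, Lats2, the Hox genes, Rgs12, Actg1, Dsc2, Fst, the fibroblast genes and the uncalled immediate early genes were added with their values known. Positions came from GENCODE M21, of the same assembly. The procedure was tested on simulated data. Alternatives covered the test, scaling, filter, libraries, depth, cells, clustering and each mouse left out.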

Additional observations from a re-analysis of the deposited data

Results flagged for a closer look

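The age difference of Lars2 differed between EoE and control mice by a test of the difference itself. Lars2 was at 182 and 176 CPM in old EoE mice 11 and 12 and at 1078.5 and 1028 in young EoE mice 9 and 10, while control mice had 84.6 to 174 at both ages. The log2 fold change between ages was -2.55 (SE 0.33, adjusted p = 0.000217) in EoE and 0.26 (adjusted p = 1.00) in controls, and the difference between them was -2.82 (SE 0.42, adjusted p = 0.00246, edgeR quasi-likelihood test, 2 against 2 EoE mice and 3 against 3 control mice). Old EoE mice rest on 10 and 11 UMIs. Without mouse 11 or mouse 12, 0 genes passed this test. Control groups of 3 mice were too small to be searched for single outlying mice.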

How the results depend on the processing

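No paired analysis was possible because old and young mice share no replicate number, and the library numbers 1 and 2 recur within every mouse. Of the 5 called genes in all cells, H19 passed in 15 of 20 alternatives, Hoxc8 in 14 and Ccn1 in 12. Ccn2 had counts sufficient for a test in only 14 of the 20 and passed in 10. Rgs2 was tested in only 15 of the 20 and passed in 9. Each gene kept its direction in all alternatives that tested it. The count of 5 became 23 without the filter on low counts, 2 in the first and 2 in the second library of each mouse, 1 with mice thinned to equal UMIs, 0 with mice thinned to 71 cells, 3 with each barcode counted once (chosen after seeing the data), 3 in limma voom on 12 libraries with the mouse as block and 0 with all 13 mice in 5 groups. Leaving out 1 mouse gave 0 to 7. In Krt5-dominant cells the 8 became 5 in DESeq2, 18 without the filter and 4 to 24 without 1 mouse (4 without mouse 4, 24 without mouse 3, 17 without mouse 5, 13 without mouse 6 and 5 without mouse 2). In Krtdap-dominant cells the 0 became 4 without the filter and 0 to 8 without 1 mouse. The 14 genes of the EoE age effect became 1 with cells inside the limits and 1 to 10 without 1 mouse, and the 1 gene whose age effect differed became 0 to 8, with 8 without mouse 3 and 4 without mouse 6. The cause of these changes was not tested. The difference in muscle markers was 0.00232 percentage points in the first and -0.00228 in the second libraries, beside -0.000244 over both, and that of the class between the strips was 2.15, 0.916 and 3.89 with resolution 2, called genes kept or cells classed singly, beside 0.0299. The other 115 of 117 list values and 30 of 33 class values moved by less than 1 SD between mice. Genes with few UMIs in all mice could not be tested, and mouse 3 and the EoE mice were the shallowest.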
